A study of Mus musculus with 33 samples.

Results

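Sites with peaks of Menin and MLL3 but none of MLL1 or Wdr5 were followed through the peak lists of C2C12 cells. A site is a peak of the pooled Menin list of growing myoblasts that lies on an autosome and is narrower than 5000 bp. It also overlaps, by at least 1 bp, a peak of Menin replicate 1 or 2 and a peak of the MLL3 list, and it overlaps no peak of the pooled MLL1 or Wdr5 list. Of 68934 autosomal Menin peaks, 68259 were below the width limit, 19308 of those met a replicate peak and 6099 of those met MLL3. Of these 6099, 2860 met neither MLL1 nor Wdr5 and are called the Menin-MLL3 sites here. They made up 14.8% of the 19308 replicated Menin peaks and 46.9% of those with MLL3. The MLL3 list covered 163 Mb of the autosomes, and 13.7% of the positions 100 kb from the centres of the sites. An overlap of 1 bp can therefore arise by position alone, and how many did was not tested. The sites were chosen by the Menin, MLL3, MLL1 and Wdr5 lists, so values of these 4 lists at the sites, their spacing and splits by MLL3 cover are descriptions without a test. The lists of ING1, LSD1 and Sin3A had no part in the choice.

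C2C12 is a mouse myoblast line that fuses into myotubes when serum is lowered. The Menin, MLL1, MLL3, Wdr5, LSD1 and ING1 lists of myoblasts came from cells growing in 10% fetal bovine serum, and the ING1, LSD1 and Sin3A lists of myotubes from cells kept for 96 h in 2% horse serum. ING1 alone was a transgene product: Flag-tagged ING1 was expressed from a retroviral vector in puromycin-selected cells in both states and pulled down with an anti-FLAG antibody, so its lists describe an added, tagged protein. Antibodies against the proteins themselves served for the other factors, in cells without a stated change of genotype. Menin, MLL1, Sin3A and ING1 in myoblasts had 2 replicate lists each, Wdr5 and ING1 in myotubes had 3, and MLL3 and the LSD1 lists had 1 each, so that nothing resting on MLL3 or LSD1 has a replicate check. No label says that replicates were separate cultures. The lists hold peak boundaries only. The depth behind a list is therefore unknown, and its length depends on depth as well as on binding. On autosomes the MLL3 list had 208538 peaks, Wdr5 58123, LSD1 in myotubes 16361, Sin3A 13845, ING1 in myotubes 9570, MLL1 8795, ING1 in myoblasts 8114 and LSD1 in myoblasts 4419.

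Menin is an adaptor that ties the methyltransferases MLL1 and MLL2 to chromatin, and Wdr5 is a core subunit that all MLL complexes share. MLL3 belongs to a separate branch of the family, which lacks Menin and is known above all for mono-methylation of histone H3 lysine 4 at enhancers, whereas MLL1 and its relatives act mostly at promoters. LSD1 removes methyl groups from mono- and dimethylated H3 lysine 4. ING1 reads the trimethylated form through its PHD finger and belongs to the histone deacetylase complex built on the scaffold Sin3A. A site with Menin and MLL3 peaks but no Wdr5 peak thus lacks, in these lists, a subunit that both branches carry. Gene names and sequences are not given for the regions, because no mm9 genome or annotation was used here, and all coordinates are mm9, counted from 1.

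The remaining replicated Menin peaks served as comparison. The Menin-only peaks, 5841 in all, met none of MLL3, MLL1 and Wdr5. The co-bound peaks, 3239 in all, met MLL3 and also MLL1 or Wdr5. A further 7368 met MLL1 or Wdr5 without MLL3. In crude shares MLL3 was about as frequent with and without MLL1 or Wdr5. It lay at 32.9% of the Menin peaks that lacked MLL1 and Wdr5 and at 30.5% of those that had either. Width was not held equal here, and wide peaks meet more of any list. The median width was 2174 bp for co-bound peaks and 1725.5 bp for peaks with MLL1 or Wdr5 without MLL3. It was 1076.5 bp for the sites and 900 bp for Menin-only peaks.

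The Menin-MLL3 sites were short. Their median width was 1076.5 bp (quartiles 718 and 1696.25 bp, range 34 to 4907 bp), against 900 bp for Menin-only peaks and 2174 bp for co-bound peaks. Together they covered 3.76 Mb. Their support in the replicate lists was also thinner than that of co-bound peaks. Of the sites, 1757 (61.4%) met a peak of Menin replicate 1 alone, 542 of replicate 2 alone and 561 (19.6%) of both, whereas both lists met 64.2% of co-bound peaks and 16.5% of Menin-only peaks. The 2 sites just inside the width limit were chr15:37924936-37929842 (4907 bp) and chr15:72979285-72983926 (4642 bp). Beyond it, 19 Menin peaks fulfilled the other conditions, the narrowest of them chr13:5863343-5868343 (5001 bp) and chr2:29855366-29860521 (5156 bp).

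MLL3 usually met a site with 1 peak that covered most of it. A single MLL3 peak lay at 2548 sites (89.1%), 2 peaks at 288 and 3 or more at 24. The median site had 623.5 bp, or 67.9% of its width (quartiles 36.9% and 94.8%), under MLL3. At 569 sites (19.9%) MLL3 covered the whole Menin peak, and at 142 it covered less than 10%. In co-bound peaks, which were wider, the medians were 666 bp and 35.0%. The stretch under MLL3 was thus no longer at the sites, although it filled more of their width. The 3066 MLL3 peaks at the sites had a median width of 896.5 bp, against 635 bp for all autosomal MLL3 peaks. Wide MLL3 peaks are more likely to meet a Menin peak, and the part of this in the difference was not tested. The longest stretch of MLL3 within a site was 4529 bp, 97.6% of the 4642 bp site on chromosome 15, and a single MLL3 peak covered all 4107 bp of chr8:82210247-82214353. The sites chr8:98290510-98294840, with 4033 bp, chr8:98408432-98412114, with 3683 bp, and chr19:9967289-9971308, with 3629 bp, followed.

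MLL1 and Wdr5 were missing from the sites themselves but not from their surroundings. The nearest MLL1 or Wdr5 peak lay at a median distance of 3.75 kb (quartiles 1.35 and 9.16 kb), with 579 sites (20.2%) within 1 kb of one and 2217 (77.5%) within 10 kb. Wdr5 was the nearer of the pair, with a median of 4.31 kb against 18.9 kb for MLL1. Its list is also longer, with 58123 against 8795 autosomal peaks, and the part of list length was not tested. Menin-only peaks lay similarly close, with a median of 3.01 kb to either factor, 3.67 kb to Wdr5 and 21.0 kb to MLL1. Only chr8:6574261-6575811 was more than 100 kb away, at 186.8 kb. The next were chr7:36686844-36687441 at 98.7 kb, chr7:97295415-97296048 at 82.5 kb, chr9:104073279-104073917 at 81.4 kb and chr1:13285034-13285846 at 73.2 kb. All 5 met Menin replicate 1 only, and none met a list of ING1, LSD1 or Sin3A. Single replicate lists of MLL1 or Wdr5 reached 79 sites (2.76%) that the pooled lists left free. MLL1 replicates 1 and 2 met 15 and 1 sites, and Wdr5 replicates 1, 2 and 3 met 46, 14 and 15.

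Most Menin-MLL3 sites carried none of the readers, erasers and scaffolds mapped in this series. None of the 5 lists met 2369 of the 2860 sites (82.8%), against 27.0% of the co-bound peaks and 82.8% of the Menin-only peaks. The share of sites met by each list is given with its exact 95% binomial interval, which covers counting error only, and with the share over all 19308 replicated Menin peaks. ING1 in myoblasts met 107 sites (3.74%, interval 3.08% to 4.50%), against 27.8% of all replicated Menin peaks. ING1 in myotubes met 113 sites (3.95%, interval 3.27% to 4.73%), against 31.5%. Both ING1 shares were thus small beside the background. Sin3A in myotubes met 175 sites (6.12%, interval 5.27% to 7.06%), against 36.1%. LSD1 in myoblasts met 45 sites (1.57%, interval 1.15% to 2.10%), against 16.0%. LSD1 in myotubes met 304 sites (10.6%, interval 9.52% to 11.8%), against 21.5%. LSD1 of myotubes was the most frequent of the 5 at the sites, although Sin3A was the most frequent at replicated Menin peaks as a whole. This was not particular to the sites: at Menin-only peaks LSD1 of myotubes also led, with 9.64% against 7.04% for Sin3A.

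Co-bound peaks differ from the Menin-MLL3 sites by the presence of MLL1 or Wdr5, and the comparison asks whether the other factors go with it. All 5 lists were sparser at the sites. Since wide peaks meet more of any list, the odds ratio was computed within 5 classes of peak width, and its direction was counted over the 19 autosomes with an exact two-sided binomial test, for which 3.81e-06 is the smallest p that 19 autosomes can give. Adjustment followed Benjamini and Hochberg over 10 contrasts. ING1 in myoblasts met 51.7% of co-bound peaks, an odds ratio for the sites of 0.0634 (95% interval 0.0513 to 0.0783). For ING1 in myotubes the co-bound share was 58.1% and the odds ratio 0.0482 (0.0392 to 0.0593). Sin3A met 62.3% of co-bound peaks, with an odds ratio of 0.0642 (0.0538 to 0.0766), and LSD1 in myoblasts 34.5%, with an odds ratio of 0.0564 (0.0414 to 0.0769). The smallest gap was that of LSD1 in myotubes, which met 34.5% of co-bound peaks, with an odds ratio of 0.377 (0.323 to 0.440). Each of the 5 was lower on 19 of 19 autosomes (exact binomial test, adjusted p = 7.63e-06). Peaks of one list are not independent samples, so these tests describe the lists and not replicate cultures.

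**Figure D1:**
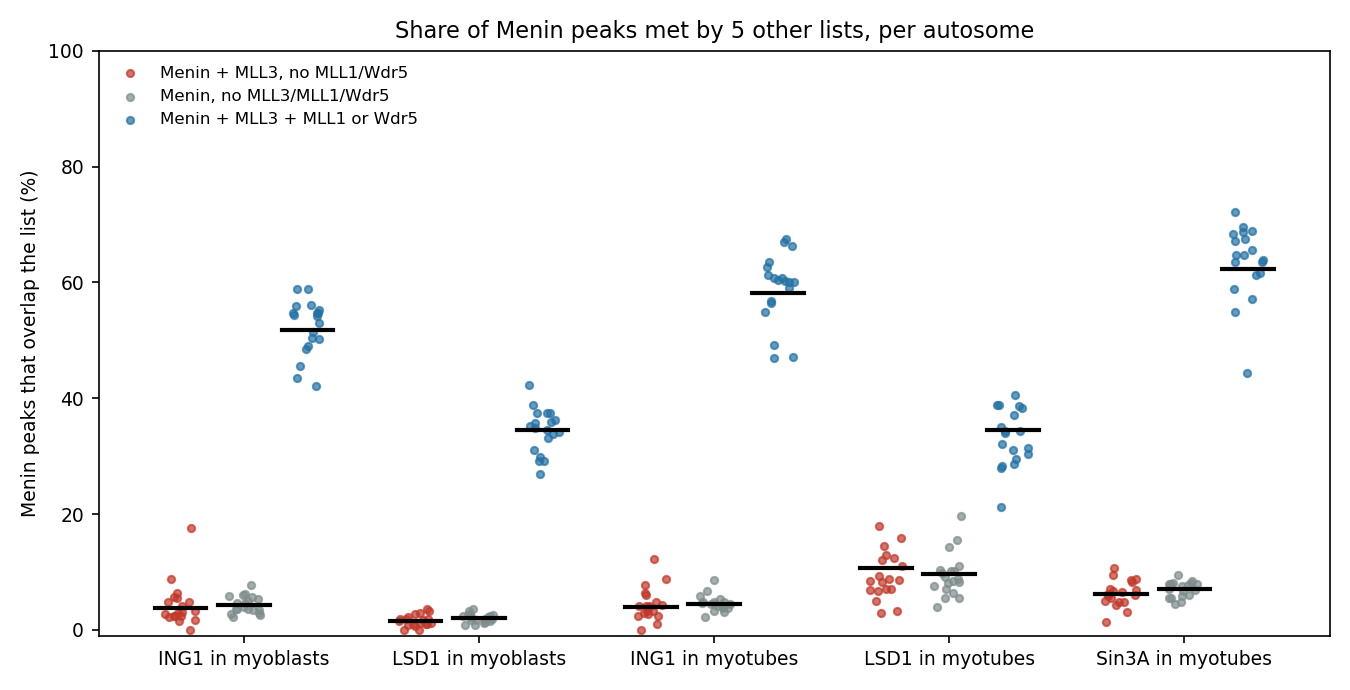
Percent of Menin peaks that overlap each of 5 lists (y axis), where each point is 1 of 19 autosomes and each black line the share over all autosomes, for the 2860 Menin-MLL3 sites without MLL1 or Wdr5 (red), 5841 Menin-only peaks (grey) and 3239 co-bound peaks (blue). Red and grey points lie together near the bottom, with a single red point at 17.5% for ING1 in myoblasts, and every blue point lies above every red point of the same list, with the smallest distance in LSD1 of myotubes.

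The support of the Menin peak moved with these shares. Among sites in both Menin replicate lists, whose median width was 1924 bp, ING1 in myoblasts met 60 of 561 (10.7%), Sin3A 90 (16.0%) and LSD1 in myoblasts 29 (5.17%). Among the 1757 sites in replicate 1 alone, with a median width of 935 bp, the shares were 1.76%, 3.13% and 0.626%. LSD1 in myotubes varied less, with 14.8% of the sites in both lists and 10.2% of those in replicate 1 alone. Menin-only peaks moved alike. ING1 in myoblasts, Sin3A and LSD1 in myoblasts met 13.6%, 19.3% and 7.27% of those in both lists. In replicate 1 alone the Menin-only shares were 1.71%, 3.55% and 0.813%. Width was not held equal in these shares, and wide peaks meet more of any list. Co-bound peaks in both lists stood at 65.7%, 75.3% and 43.6% for ING1 in myoblasts, Sin3A and LSD1 in myoblasts. With both classes restricted to peaks in both Menin lists, the odds ratios for the 5 lists were between 0.0604 and 0.282 and each was lower on 19 of 19 autosomes.

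Against the Menin-only peaks the differences were small. These peaks lack MLL3 as well, so the comparison asks what goes with MLL3 where the other writers are missing. The crude shares lay within 1 percentage point of each other for every list: ING1 in myoblasts met 4.26% of Menin-only peaks, ING1 in myotubes 4.45%, LSD1 in myoblasts 2.02%, LSD1 in myotubes 9.64% and Sin3A 7.04%. Within width classes, 3 lists were sparser at the sites. Sin3A had an odds ratio of 0.646 (0.534 to 0.782) and was lower on 17 of 19 autosomes (exact binomial test, adjusted p = 0.00121). LSD1 in myoblasts had an odds ratio of 0.543 (0.382 to 0.771), lower on 16 (exact binomial test, adjusted p = 0.00632), and ING1 in myoblasts one of 0.638 (0.502 to 0.810), lower on 15 (adjusted p = 0.024). ING1 in myotubes, with 0.657 (0.520 to 0.829), was lower on 13 autosomes and did not pass (exact binomial test, adjusted p = 0.186), and LSD1 in myotubes, with 0.941 (0.809 to 1.09), was lower on 11 (adjusted p = 0.648). Without width classes the odds ratios of the 3 lists that passed were 0.861, 0.775 and 0.873 and none of them passed, and that of LSD1 in myotubes was 1.115. Restriction to peaks in both Menin lists also ended all 3 calls. Single Menin lists mattered as well. The call of ING1 in myoblasts ended without Menin replicate 1 (0.582) or 2 (0.678), that of Sin3A ended without replicate 2 (0.678), and ING1 in myotubes passed without replicate 1 (0.596) or 2 (0.701). LSD1 in myoblasts kept its call without either. The calls also depended on the pooled lists of the tested factors. With each pooled list replaced by the union of its replicate lists, ING1 in myoblasts (0.708, 61 sites) and Sin3A (0.615, 113 sites) no longer passed and ING1 in myotubes (0.477, 21 sites) did. Within those unions, leaving out ING1 replicate 2 of myoblasts gave 1.64 and leaving out Sin3A replicate 1 gave 0.462, each on 2 sites, and without ING1 replicate 2 of myotubes (0.657, 15 sites) that list did not pass.

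The sites that met a list fell into a few combinations. A single list met 366 sites, and for 248 of them it was LSD1 in myotubes. Those 248 were 81.6% of all sites with LSD1 in myotubes, against 73.4% of the Menin-only peaks and 5.64% of the co-bound peaks that it met. Sin3A alone met 64 sites, ING1 of myoblasts alone 34 and ING1 of myotubes alone 15. All 5 lists met 13 sites. The widest of these were chr11:70375172-70379173 (4002 bp), which MLL3 covered over 8.37%, and chr8:98408432-98412114, which a single MLL3 peak covered whole and which lay 0.107 kb from the nearest Wdr5 peak. They were followed by chr6:88033805-88037185 (3381 bp), chr8:96909568-96912680 (3113 bp) and chr11:101284971-101287970 (3000 bp). ING1 and Sin3A of myotubes shared 86 sites, 76.1% of those with ING1 and 49.1% of those with Sin3A. LSD1 of myoblasts and Sin3A of myotubes shared 37, which is 82.2% of the 45 sites with LSD1 in myoblasts and 21.1% of those with Sin3A. LSD1 and Sin3A of myotubes shared 50, 16.4% of the LSD1 sites and 28.6% of the Sin3A sites. Sin3A also lay at most of the peaks with either factor in the other classes: at 67.7% of the Menin-only and 90.9% of the co-bound peaks with ING1 in myotubes, and at 69.5% and 92.9% of those with LSD1 in myoblasts.

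LSD1 was found at the sites mainly after differentiation. Its peaks lay at 45 of the 2860 sites in myoblasts and at 304 in myotubes, a 6.76-fold larger number, while the autosomal lists grew from 4419 to 16361 peaks. Only 18 sites had LSD1 in both states, 27 had it in myoblasts only and 286 in myotubes only, so that 94.1% of the myotube sites were new. In co-bound peaks LSD1 lay at 1119 in myoblasts and 1118 in myotubes, with 661 in common. The share rose by 9.06 percentage points at the sites and by 7.62 points at Menin-only peaks, and differed by -0.0309 points at co-bound peaks. On single autosomes the myoblast share of the sites was between 0% and 3.66% and the myotube share 2.88% or more, with a median of 8.64%, and the difference was between 1.92 and 17.4 points. Each state has 1 LSD1 list, so this change has no replicate check.

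The change at the sites was set against that at co-bound peaks. Both measures used for this were added after the LSD1 values had been seen, when no test between the states had been planned, and the second was tried after the first. Both also depend on the starting share, which was 1.57% at the sites and 34.5% at co-bound peaks. The share at the sites could thus fall by no more than 1.57 points, and the part of this limit was not tested. The change was 9.09 points higher at the sites, in the same direction on 18 of 19 autosomes (exact binomial test, adjusted p = 0.000153 over 2 comparisons). Among peaks in both Menin lists the difference was 10.0 points, on 14 of 19 autosomes, and did not pass. Among peaks with LSD1 in 1 state only, 91.4% of 313 sites had it in myotubes, against 49.9% of 915 co-bound peaks, a difference of 41.4 points with the same direction on 19 of 19 autosomes (exact binomial test, adjusted p = 7.63e-06). Menin-only peaks resembled the sites, with 88.3% of 581 in myotubes, and the direction held on 10 of 19 autosomes (exact binomial test, adjusted p = 1). With the myotube list reduced to its 4432 widest peaks, close to the 4419 of myoblasts, LSD1 went from 1.57% to 3.67% of the sites and from 34.5% to 11.4% of co-bound peaks. The outcome in points depended on what counts as overlap. At the exact centre of the peaks LSD1 cover went from 0.455% to 5.42% in the sites and from 11.5% to 16.3% in co-bound peaks. With LSD1 counted only over the central 200 bp, the difference was 2.05 points and did not pass, while the share in myotubes among peaks with 1 state only still differed by 34.9 points.

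**Figure D2:**
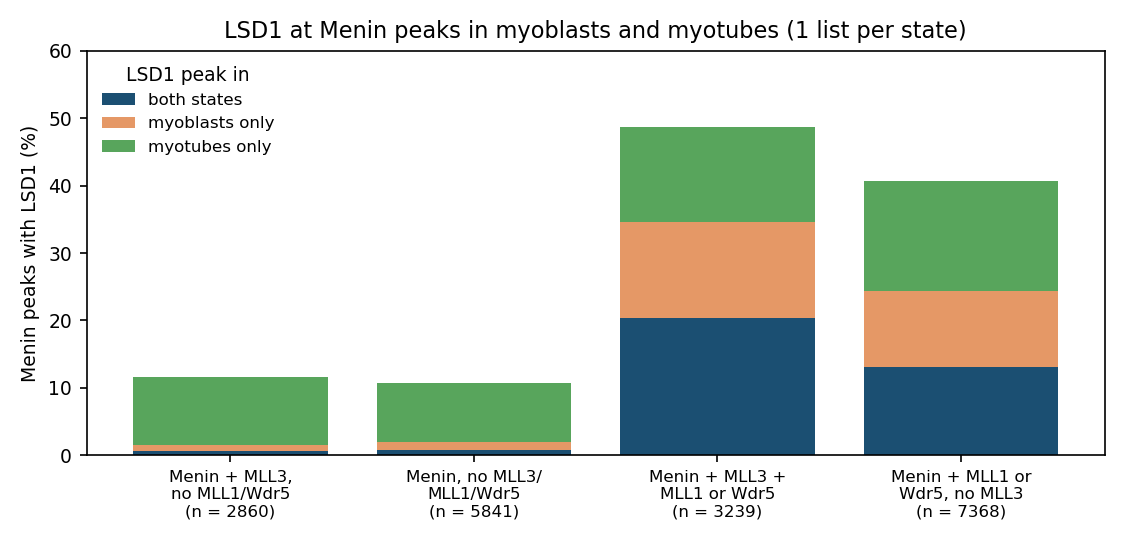
Percent of Menin peaks with an LSD1 peak (y axis, stacked from 0) in both states, in myoblasts only and in myotubes only, for the 4 classes of replicated Menin peaks, with 1 LSD1 list per state. In the 2860 sites and the 5841 Menin-only peaks nearly the whole bar is green (myotubes only), while in the 3239 co-bound peaks the parts for myoblasts only (458 peaks) and myotubes only (457) are equal in height.

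The MLL3 cover of sites with LSD1 of myotubes was high. MLL3 chose the sites and the split below was made after values had been seen, so the values carry no test. The 248 sites with LSD1 of myotubes alone had a median MLL3 cover of 96.2% of their width, against 67.0% for the 2369 sites free of all 5 lists and 37.7% for those with ING1 in myoblasts. Where MLL3 covered at least 50% of the site, LSD1 of myotubes met 232 of 1814 (12.8%, interval 11.3% to 14.4%). Where it covered less, LSD1 met 72 of 1046 (6.88%, interval 5.42% to 8.59%). The odds ratio within width classes was 3.09. For the other lists it was 0.518 (ING1 in myoblasts), 0.537 (ING1 in myotubes), 0.729 (LSD1 in myoblasts) and 0.716 (Sin3A). In crude shares, which do not take width into account, LSD1 of myotubes was most frequent at the fullest cover. LSD1 of myotubes met 9.45% of the 434 sites with a cover below 25%, 5.07% of the 612 with 25 to 50%, 7.64% of the 576 with 50 to 75% and 15.2% of the 1238 with 75% or more. Sin3A met 11.8%, 7.68%, 6.08% and 3.39% of the same sites.

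Well covered sites were narrower, with a median of 871 bp at 75% or more and 1587.5 bp below 25%, and without width classes the odds ratio of LSD1 in myotubes was 1.98. It was 2.52 without Menin replicate 1 (1103 sites), 2.23 in sites of both Menin lists (561) and 4.21 in sites below 2000 bp (2363). In co-bound peaks LSD1 of myotubes went the other way in crude shares, from 40.1% where MLL3 covered less than 25% to 26.6% where it covered 75% or more. The median width of these peaks fell alongside, from 2703 to 1281 bp, and wide peaks meet more of any list. Width was not held equal there, and its part in this fall was not tested.

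**Figure D3:**
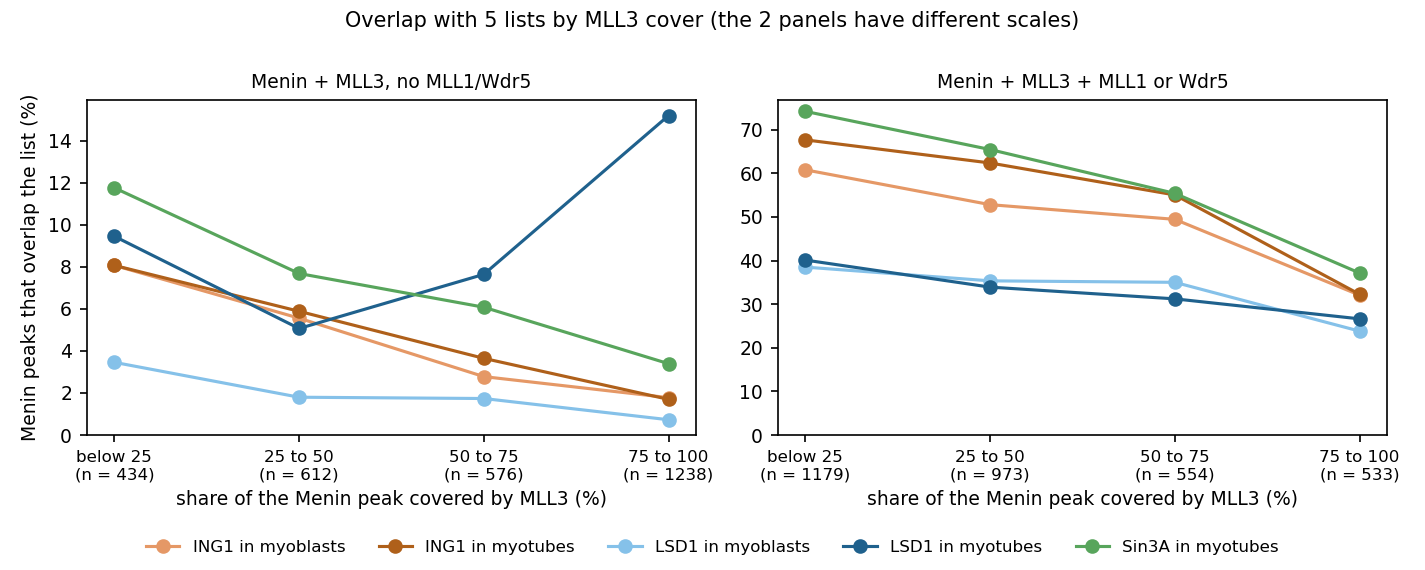
Percent of Menin peaks that overlap each of 5 lists (y axis, with a scale of its own in each panel), by the percent of the Menin peak's width under MLL3 (x axis), for the 2860 Menin-MLL3 sites (left) and the 3239 co-bound peaks (right). On the left LSD1 of myotubes ends highest, at 15.2%, as the other 4 lists fall to between 0.727% and 3.39%, and on the right all 5 lists are lower at the fullest MLL3 cover than at the least. Shares are crude, and the median width falls from 1587.5 to 871 bp on the left and from 2703 to 1281 bp on the right.

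The widest sites with LSD1 of myotubes as the sole list were chr16:57136456-57141096 (4641 bp), chr2:167782015-167786066 (4052 bp), chr8:87276746-87280787 (4042 bp), chr16:20680972-20684753 (3782 bp) and chr2:60677580-60681329 (3750 bp). MLL3 covered 79.3% and 66.9% of the chr8:87276746-87280787 and chr2:60677580-60681329 sites, both of which met both Menin lists, and between 10.3% and 21.0% of the other 3, which met replicate 1 only. The 5 widest sites in both Menin lists included the 4907 bp and 4642 bp sites on chromosome 15. The first met none of the 5 lists, and the second met LSD1 and Sin3A of myotubes. The others were chr3:7511195-7515833, with none, chr15:12133215-12137801, with all but LSD1 in myoblasts, and chr3:144764439-144768960, with ING1 and Sin3A of myotubes.

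ING1 was scarce at the sites in each replicate list. In myoblasts, replicate 1 met 2 sites (0.0699%) and replicate 2 met 60 (2.10%). In myotubes, replicates 1, 2 and 3 met 14 (0.490%), 15 (0.524%) and 2 (0.0699%). The lists behind these values had 427, 5496, 2151, 2485 and 122 autosomal peaks, and the longest list met the most sites. The mean share was 1.08% ± 1.43 (SD, n = 2) in myoblasts and 0.361% ± 0.253 (SD, n = 3) in myotubes. The groups overlapped. The difference of -0.723 points was smaller in size than the SD in myoblasts (1.43) but larger than that in myotubes (0.253). An exact two-sided permutation test gave p = 0.5, the smallest possible p being 0.2. Each list met far more of the replicated Menin peaks at large, namely 1.57%, 20.2%, 8.08%, 9.51% and 0.430% in the same order. Menin-only peaks had small shares like the sites, with 0.0342%, 2.12%, 0.514%, 0.907% and 0.0685%, so the scarcity was not particular to the sites. In the pooled lists 59 sites had ING1 in both states, 55.1% of the 107 of myoblasts and 52.2% of the 113 of myotubes. The overlap was 51.8% and 49.6% at Menin-only peaks and 86.2% and 76.8% at co-bound peaks. The Sin3A replicates met 113 (3.95%) and 2 (0.0699%) sites, with lists of 9270 and 426 peaks.

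The sites sat in MLL3-rich surroundings. MLL3 covered 66.8% of the site centres, 38.6% of positions 1 kb away, 26.1% at 5 kb and 23.4% at 10 kb, and reached 13.7% at 100 kb. Around Menin-only peaks it covered 13.7% at 5 kb and 13.8% at 10 kb, and around co-bound peaks 18.1% and 18.8%. LSD1 of myotubes fell slowly with distance from the sites. It covered 5.42% of centres, 4.39% of positions at 5 kb, 3.43% at 10 kb and 1.26% at 100 kb. Menin-only peaks had similar values at these distances, with 5.63%, 4.00%, 3.42% and 1.44%. Around co-bound peaks LSD1 of myotubes fell from 16.3% at the centre to 3.09% at 5 kb. Sin3A covered 2.80% of the site centres and was highest at 2 kb, with 3.67%. Around Menin-only peaks it was also highest at 2 kb, with 5.22% against 3.90% at the centre. Its cover of co-bound centres was 38.6%. ING1 in myoblasts covered 1.61% of the site centres and 2.87% of positions at 5 kb.

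**Figure D4:**
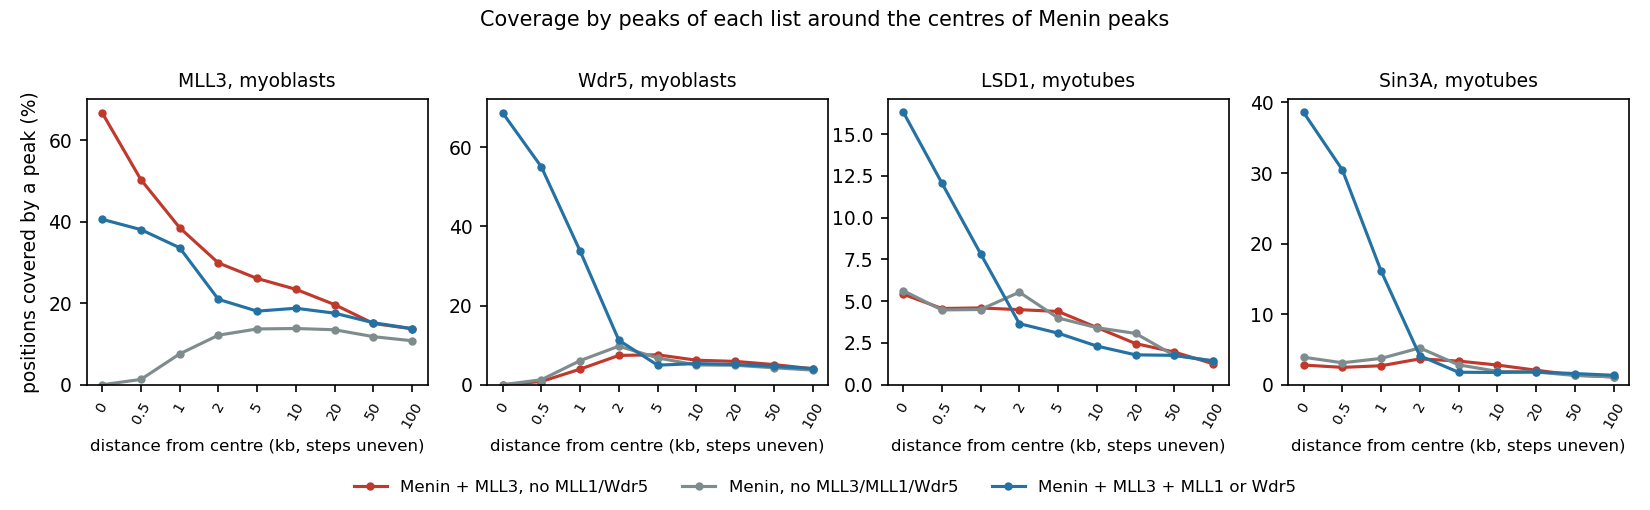
Percent of positions covered by peaks of MLL3, Wdr5, LSD1 in myotubes and Sin3A in myotubes (y axes, a scale of its own in each panel) at set distances from the centre of Menin peaks (x axis, both sides together, uneven steps), for the Menin-MLL3 sites (red), Menin-only peaks (grey) and co-bound peaks (blue). MLL3 and Wdr5 at the centre follow from the choice of the classes, whereas LSD1 and Sin3A do not: the red lines of these 2 stay low and change little out to 5 kb, where they stand at 4.39% and 3.36%, while the blue lines have dropped from 16.3% to 3.09% and from 38.6% to 1.78%. The grey lines of these 2 also stay low, going from 5.63% to 4.00% and from 3.90% to 2.82%.

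The sites lay close to one another. The median gap to the next site was 20.1 kb, against 72.7 kb for co-bound peaks, which are more numerous. Another site lay within 10 kb of 1182 sites (41.3%), and another co-bound peak within 10 kb of 19.9% of co-bound peaks. Menin-only peaks, of which there are more, had 40.7% with a neighbour of their own class within 10 kb. Within 50 kb the shares were 59.4% for the sites, 65.5% for Menin-only peaks and 43.3% for co-bound peaks. The lists that chose the sites also set their spacing, so these values carry no test. A broad region that peak calling splits into pieces also gives near neighbours, and its part in this result was not tested.

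The sites fell in 1773 windows of 100 kb, with 1 site in 1237 windows and 3 or more in 232, which held 1015 sites (35.5%). The window with the most was chr1:71600001-71700000, with 17 sites spread over 54.4 kb. It held 55 Menin and 35 MLL3 peaks but 4 MLL1 and 6 Wdr5 peaks. Its 17 sites were 749 to 3847 bp wide, 9 of them met both Menin lists, and MLL3 covered 15.2% to 100% of each, with a median of 61.9%. None of the 17 met any of the 5 lists, although the window held 2 ING1 and 2 LSD1 peaks of myoblasts and 5 ING1, 1 LSD1 and 3 Sin3A peaks of myotubes. The windows chr9:22100001-22200000 and chr12:111800001-111900000 held 12 sites each. Of those 24 sites, 1 met a list, which was LSD1 of myotubes. It was chr9:22111612-22112442, the first site of its window.

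**Figure D5:**
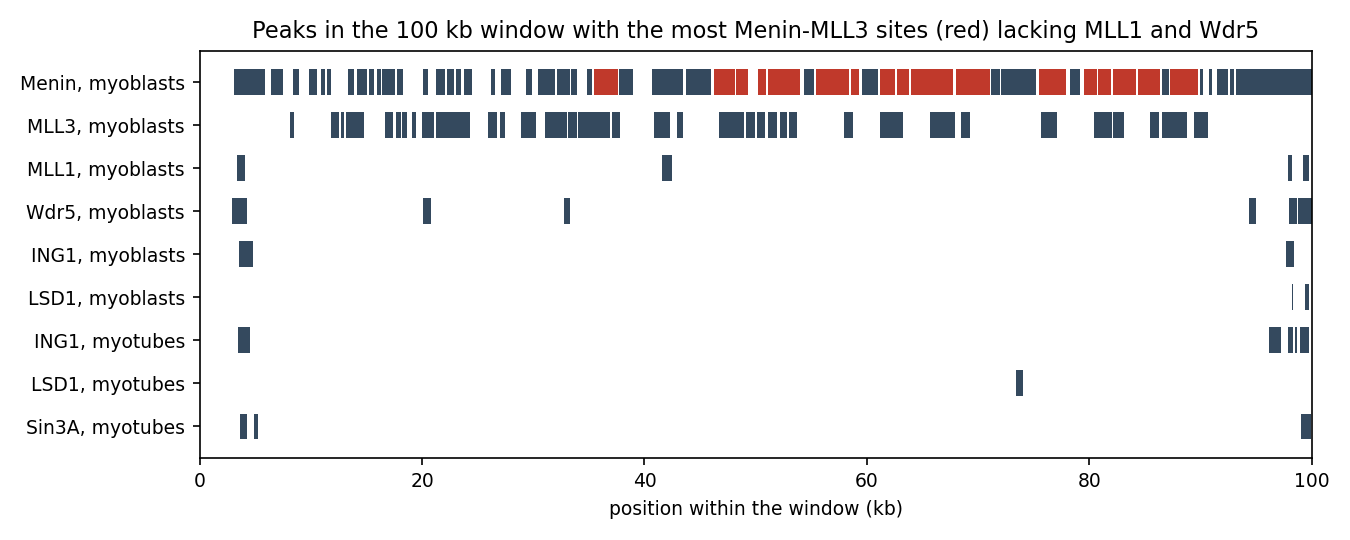
Peaks of 9 lists across chr1:71600001-71700000, with the position within the window in kb on the x axis and 1 row per list, each bar spanning a peak cut at the window's ends, and the 17 Menin-MLL3 sites in red. The red sites alternate with other Menin peaks over 54.4 kb in the right part of the window, above a row of MLL3 peaks. ING1 and Sin3A peaks stand at the window's ends.

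Sites were unevenly spread over chromosomes. Chromosome 15 held 339 sites, 23.5% of its replicated Menin peaks, and chromosome 11 held 333, or 19.1%. Chromosome 7 had the fewest, with 57 (7.51%), and the median autosome had 13.6%. As a share of Menin peaks without MLL1 or Wdr5, chromosomes 15 and 11 stood at 45.4% and 45.2%, chromosome 7 at 20.5% and the median at 31.0%. MLL3 and the absence of MLL1 and Wdr5 chose the sites, so this is a description. Chromosome 7 also gave the highest share of sites with ING1 in myoblasts, 10 of 57 (17.5%), and leaving out chromosome 15 changed none of the calls against co-bound peaks.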

How the data were processed

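The labels describe 33 samples, and 23 peak lists were used: 14 of single replicates, 6 pooled by the authors and 3 single lists. Inputs and RNA-seq were not used here. The deposited values are peak boundaries in base pairs, with no height, count or score. The submitters' processing notes name Bowtie 0.12.9, SAMtools 0.1.19 and bedtools 2.17.0, in unstated roles, and mm9 (NCBIM37). How peaks were called and pooled is not given in the sources used here. Left ends were taken as counted from 0. For MLL1, whose source label reads Menin, title and antibody were followed. For Sin3A the sample labels (myotubes) were followed over the design text.

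Overlaps were computed with Python 3.11.15, NumPy 2.4.6 and SciPy 1.17.1 on 19 autosomes, with a minimum of 1 bp. Odds ratios are Mantel-Haenszel over 5 width classes, with Robins-Breslow-Greenland 95% intervals (counting error only). Directions over autosomes were tested by exact two-sided binomial tests with a threshold of 0.05, after Benjamini-Hochberg adjustment. ING1 shares were compared by exact permutation over 5 lists. The binomial p-values measure how uniform a direction is over autosomes within the lists used, and hold no variation between samples or cultures. No label names separate cultures, so the permutation p-value reflects only how these 5 lists vary, possibly for technical reasons. The functions were tested on simulated data. Named regions are the widest sites in both Menin lists, those with the most lists, the widest with LSD1 of myotubes alone, those with the most MLL3, those farthest from MLL1 and Wdr5, those at the width limit and the 3 fullest windows of 100 kb. The farthest and the longest-covered are represented by their extremes. Members, classes and lists were chosen with earlier results of these data known. The LSD1 comparisons between states, the splits by MLL3 cover and the neighbour distances were added after seeing values, the last 2 without a test. Gene positions and motifs, which need an mm9 annotation and genome, were left out.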

Additional observations from a re-analysis of the deposited data

Results flagged for a closer look

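LSD1 changed differently between the states at the Menin-MLL3 sites and at co-bound peaks. The change of its share was 9.09 percentage points higher at the sites, which was tested by the direction on single autosomes (18 of 19, exact binomial test, adjusted p = 0.000153). Among peaks with LSD1 in 1 state only, the share with LSD1 in myotubes was 41.4 points higher at the sites (19 of 19 autosomes, exact binomial test, adjusted p = 7.63e-06). Both measures were added after the LSD1 values had been seen. The first fell to 2.05 points over the central 200 bp and was 10.0 points among peaks in both Menin lists, without passing in either. Menin-only peaks changed like the sites, by 7.62 points against 9.06, with 88.3% against 91.4% in myotubes. The LSD1 list of myotubes is longer than that of myoblasts, with 16361 against 4419 autosomal peaks, and each state has 1 list. With the myotube list reduced to its widest 4432 peaks, which changes length and peak width together, the differences were 25.2 and 58.4 points. LSD1 in myoblasts met 1.57% of the sites and 34.5% of co-bound peaks, so the share at the sites could fall by no more than 1.57 points. The parts of list length and of this starting share were not tested.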

How the results depend on the processing

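Against co-bound peaks, all 85 odds ratios over the alternatives stayed below 1 and past the threshold (0.0297 to 0.460). Against Menin-only peaks the calls changed often. Values follow in the order ING1 in myoblasts, ING1 in myotubes, LSD1 in myoblasts, LSD1 in myotubes, Sin3A, leaving out those that kept their call, and the cause of a change was not tested. An overlap of 50% gave 0.674 for Sin3A (no call), and a gap of 500 bp 0.653 for ING1 in myotubes (called). The central 200 bp gave 0.629 (no call), 0.592 (called) and 0.582 (no call). Without width classes the values were 0.873, 0.775 and 0.861 (no call), and LSD1 in myotubes reversed to 1.115 (uncalled). Peaks in both Menin lists gave 0.616, 0.546 and 0.662 (no call). For ING1 in myotubes, a width below 2000 bp gave 0.520, sites without any MLL1 or Wdr5 replicate peak 0.603 and MLL3 overlap of 50% 0.591, all called. Sites without a replicate peak gave 0.499 for LSD1 in myoblasts, and 1000 bp from MLL1 or Wdr5 gave 0.761 for ING1 in myoblasts (no call). The wider 50% of the MLL3 list gave 0.643 (no call) and 0.666 (called). LSD1 in myotubes reversed to 1.06 with MLL3 overlap of 50% and beyond 10000 bp from MLL1 or Wdr5, and to 1.19 with the wider MLL3 peaks, each uncalled. Beyond 10000 bp ING1 in myoblasts stood at 0.787, and the wider 50% of each list gave 0.868 for it and 0.524 for LSD1 in myoblasts (no call). Unions of replicate lists gave 0.708 (no call), 0.477 (called) and 0.615 for Sin3A (no call). Leaving out 1 replicate list, which for a tested factor also replaces its pooled list by replicate lists, gave 0.582 to 1.64 for ING1 in myoblasts, 0.396 to 0.701 for ING1 in myotubes and 0.462 to 0.678 for Sin3A, with the reversal to 1.64, on 2 sites, without ING1 replicate 2 of myoblasts.

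The number of sites was 561 with both Menin lists, 1103 without replicate 1 and 2318 without replicate 2, and 2164 to 2781 under the other rules. The LSD1 change against co-bound peaks was 2.05 points over the central 200 bp and 10.0 with both Menin lists (neither called), and against Menin-only peaks it reversed to -0.186 over the central 200 bp. The share of sites with LSD1 was 2.87% in myoblasts and 14.5% in myotubes with a gap of 500 bp, and 9.23% in myotubes with 50% overlap. The ING1 difference of -0.723 points was -0.577 with a replicate block, which pairs lists by number only, and 0.0185 as a ratio to all replicated Menin peaks. It was -1.74 to 0.291 without 1 list, reversing without ING1 replicate 2 of myoblasts. Lists without counts leave depth unknown, and a site without a peak is one where no peak was listed.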
